A study of Mus musculus with 10 samples.

Results

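Transcripts of 8 enzymes that make, break down or exchange asparagine, glutamate, aspartate, alanine and proline were followed in hearts of mouse embryos with a mosaic loss of the haem lyase Hccs. The genes are Asns, Gpt2, Pck2, Aldh18a1, Got1, Got2, Glul and Prodh. Every probe set whose platform annotation names exactly 1 of these symbols was taken, which gave 21 of the 34945 probe sets with 1 symbol, and all 8 genes were among the 18193 genes measured. The study compared whole hearts of female embryos at 13.5 days post coitum (dpc), 5 pools labelled Hccs het KO against 5 pools labelled control. The knockout is described as heterozygous and conditional to the heart, and the controls are littermates. Which alleles the controls carry and which Cre driver was used are not given in the sources used here. Each pool held 4 to 5 hearts of 1 genotype and was put on 1 Affymetrix array, so a value is a mean over several hearts and over all their cell types.

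Hccs attaches haem to the cytochromes c and c1 of the respiratory chain, and because the gene is X-linked, random X inactivation leaves a heterozygous female heart with both enzyme-containing and enzyme-lacking cells. The 8 enzymes form a connected part of amino acid metabolism. Glutamate, made from glutamine or 2-oxoglutarate, gives its amino group to oxaloacetate or pyruvate to form aspartate or alanine, and its carbon to proline. Aspartate and glutamine together give asparagine. Several genes of this group, Asns above all, are textbook targets of the transcription factor ATF4, which is translated when cells lack amino acids or when mitochondria are impaired. ATF4 binds, with partners, to short elements in the promoters of such genes.

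One form of that element, TGATGNAA, where N is any base, was looked for on both strands of the windows from 250 bases before to 50 bases after each annotated gene start (RefSeq, GRCm38.p6). It was present in the windows of 3 of the 8 genes, Asns, Pck2 and Got1, and in 3.97% of all 32851 such windows. The stretches from 250 bases before the start to 10 bases after it are shown for these 3 genes, because their log2 changes, given with the values of each gene, were far apart. Each is written 5′ to 3′ on the gene's own strand, with the bases of the match in capitals. They are Asns at chr6:7693200-7693459 on the minus strand, Pck2 at chr14:55540016-55540275 on the plus strand and Got1 at chr19:43524596-43524855 on the minus strand.
Asns: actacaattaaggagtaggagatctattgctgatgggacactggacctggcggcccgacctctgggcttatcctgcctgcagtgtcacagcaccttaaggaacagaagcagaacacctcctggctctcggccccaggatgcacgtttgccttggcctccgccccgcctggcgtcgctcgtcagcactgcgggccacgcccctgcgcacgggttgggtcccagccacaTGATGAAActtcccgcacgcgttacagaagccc
Pck2: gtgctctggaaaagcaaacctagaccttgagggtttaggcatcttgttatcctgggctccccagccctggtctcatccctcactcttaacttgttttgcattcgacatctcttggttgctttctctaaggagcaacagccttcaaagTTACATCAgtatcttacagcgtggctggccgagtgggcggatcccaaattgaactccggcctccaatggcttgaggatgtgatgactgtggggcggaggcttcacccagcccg
Got1: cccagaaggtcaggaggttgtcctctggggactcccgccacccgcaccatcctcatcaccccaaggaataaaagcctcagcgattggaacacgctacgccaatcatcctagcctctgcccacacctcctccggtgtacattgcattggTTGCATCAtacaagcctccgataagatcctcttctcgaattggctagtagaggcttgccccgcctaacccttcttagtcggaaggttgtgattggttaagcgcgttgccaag
In Asns the match, TGATGAAA, runs in the direction of the gene and begins 23 bases before the start. A second element known from this promoter, GTTACA, begins 3 bases before the start. GTTACA was found in 8.25% of all windows. In Pck2 and Got1 the element lies on the opposite strand, as TGATGTAA and TGATGCAA, with its leftmost base 103 and 102 bases before the start, and in Pck2 a GTTACA that begins 104 bases before the start overlaps it. The windows of Gpt2, Aldh18a1, Got2, Glul and Prodh held no TGATGNAA. CACGTG and TGACGTCA were looked for as well. CACGTG was present in 1 of the 8 genes, Aldh18a1, and in 7.15% of all windows. TGACGTCA was present in none of the 8 and in 1.79% of all windows. These matches describe the letters of the windows and are not measured binding.

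Across the arrays, 4 of the 8 genes rose in the knockout hearts and none fell past the threshold. Asns rose 4.00-fold, Gpt2 1.91-fold, Aldh18a1 1.30-fold and Pck2 1.30-fold. Got1, Glul, Prodh and Got2 did not pass. A gene passed when the adjusted p of limma's moderated test (Benjamini-Hochberg over all 18193 genes) lay under 0.05, and 1.63% of all genes passed in the higher and 0.945% in the lower direction. For 4 of the 8 genes every knockout array also lay above every control array, which held in this direction for 3.86% of all genes. The median log2 change of the 8 genes was 0.35, against 0.025 for all genes, and 7 of the 8 changes were positive, against 60.5% over all genes. The genes were chosen with earlier results of these data known, so these shares describe them and do not test them.

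**Figure D1:**
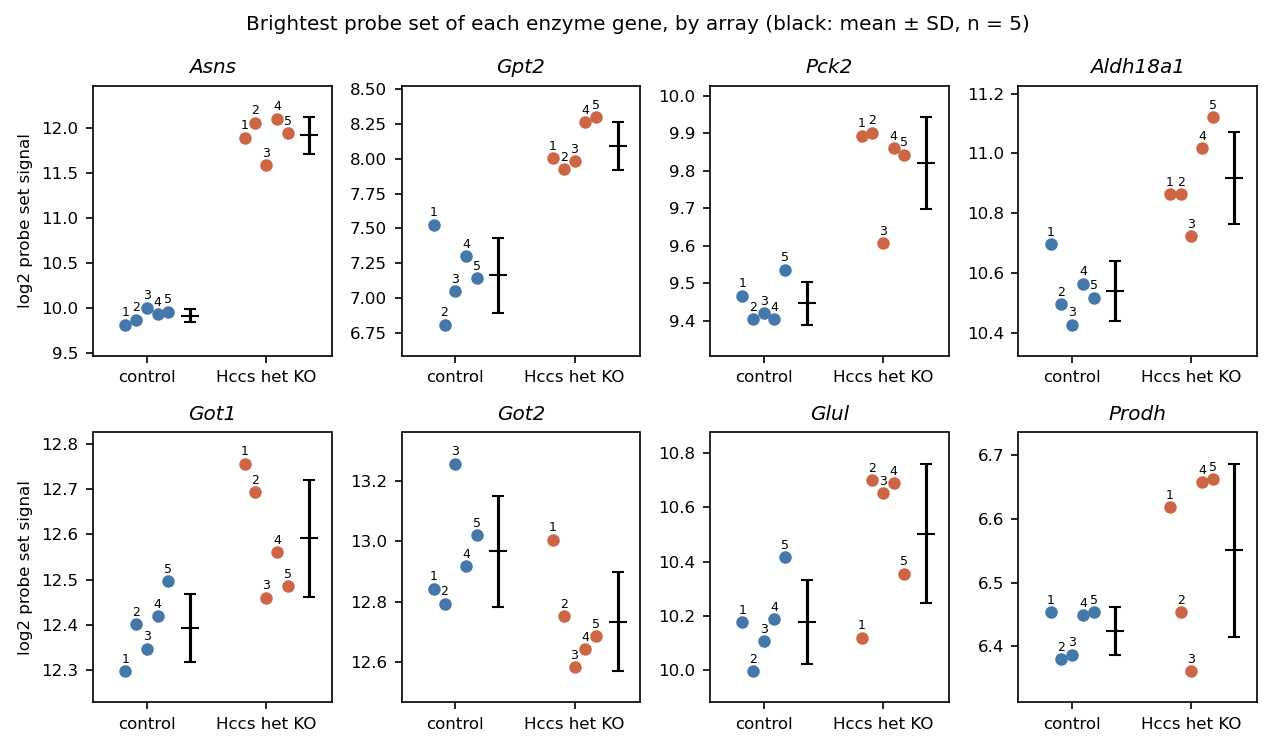
Log2 signal (vertical axis) of the brightest probe set of each of the 8 genes in each array, 5 control (blue) and 5 Hccs het KO (orange) pools with their replicate numbers; black marks are mean ± SD. The groups do not overlap for Asns, Gpt2, Pck2 and Aldh18a1, while at least 1 knockout array lies among the controls for Got1, Got2, Glul and Prodh.

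Asns, asparagine synthetase, transfers the amide nitrogen of glutamine to aspartate in the cytosol. Its brighter probe set (1433966_x_at) read 9.81, 9.87, 10.002, 9.93 and 9.96 in control arrays 1 to 5 and 11.89, 12.06, 11.58, 12.10 and 11.94 in knockout arrays 1 to 5, on the log2 scale of the deposited signals. The control arrays lay close together (SD 0.074, n = 5), and the knockout arrays spread more widely (SD 0.20, n = 5). Relative to the control mean the single knockout pools ranged from 3.18-fold in replicate 3 to 4.55-fold in replicate 4. The groups were far apart, with a log2 change of 2.0, its SE 0.091 and a limma adjusted p of 2.34e-05. The other probe set of the gene (1451095_at) gave the same picture with a smaller change. It rose from 9.57 ± 0.17 to 11.32 ± 0.27 (mean ± SD, n = 5 each), by 1.74 on the log2 scale (SE 0.13, limma adjusted p = 0.00121 over 45037 probe sets), and knockout replicate 3 was again the lowest, at 10.89.

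Gpt2, the mitochondrial alanine aminotransferase, exchanges the amino group between glutamate and pyruvate. The brightest of its 4 probe sets (1438385_s_at) read 7.53, 6.81, 7.05, 7.30 and 7.14 in control arrays 1 to 5 and 8.005, 7.93, 7.98, 8.26 and 8.30 in knockout arrays 1 to 5. Here the controls were the more variable group (SD 0.27 against 0.17), and control replicate 1 came nearest to the knockouts. Gpt2 rose by 0.93 log2 units (SE 0.13, 95% interval 0.64 to 1.23, limma adjusted p = 0.0156). All 4 probe sets pointed up, with log2 changes of 0.93, 1.34, 0.77 and 0.60 from the brightest to the dimmest. The first and the second of these passed over all probe sets, and in the first 3 the groups did not overlap. In the other two, whose control means were 4.85 and 4.75 and so not far above the array medians of 3.65 to 3.76, the knockout pools disagreed among themselves. Probe set 1434542_at read 6.43 in knockout replicate 1 and 5.08 in replicate 2, and 1439029_at read 5.92 in replicate 3 and 4.81 in replicate 5, inside the control range.

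Pck2, the mitochondrial phosphoenolpyruvate carboxykinase, turns oxaloacetate into phosphoenolpyruvate. Its brighter probe set (1425615_a_at) read 9.47, 9.40, 9.42, 9.40 and 9.54 in control arrays 1 to 5 and 9.89, 9.90, 9.61, 9.86 and 9.84 in knockout arrays 1 to 5. Knockout replicate 3 stood apart from the other four, and at 9.61 lay just above the highest control, replicate 5 at 9.54. Pck2 rose by 0.37 log2 units (SE 0.059, limma adjusted p = 0.0208). The dimmer probe set (1452620_at) changed more, from 5.50 ± 0.11 to 6.14 ± 0.11 (mean ± SD, n = 5 each), by 0.64 on the log2 scale (SE 0.066, limma adjusted p = 0.00679 over all probe sets). In that probe set the lowest knockout array was replicate 1, at 5.97, against a highest control of 5.61.

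Aldh18a1, the synthase that turns glutamate into pyrroline-5-carboxylate, opens the route to proline and ornithine. The brightest of its 5 probe sets (1437325_x_at) read 10.70, 10.50, 10.43, 10.57 and 10.52 in control arrays 1 to 5 and 10.86, 10.86, 10.72, 11.02 and 11.12 in knockout arrays 1 to 5. The groups nearly touched, at 10.70 in control replicate 1 and 10.72 in knockout replicate 3. Aldh18a1 rose by 0.38 log2 units (SE 0.078, 95% interval 0.20 to 0.55, limma adjusted p = 0.0411). The 5 probe sets all pointed up, by 0.26 to 0.51, but none passed over all probe sets (limma adjusted p 0.0567 to 0.164), and in the 4 dimmer ones the groups overlapped. In each of 1415836_at, 1435855_x_at, 1437333_x_at and 1437620_x_at, knockout replicate 5 or 4 was the highest array and knockout replicate 3 the lowest of the knockouts. A probe set ending in _x_at holds probes that can also match other sequences, and 4 of these 5 are of that kind. The brighter Asns probe set (1433966_x_at) is of that kind too. The other Asns probe set (1451095_at), with the smaller log2 change of 1.74, is not. Of the 4 rises that of Aldh18a1 depended most on the arrays and settings, as given below.

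**Figure D2:**
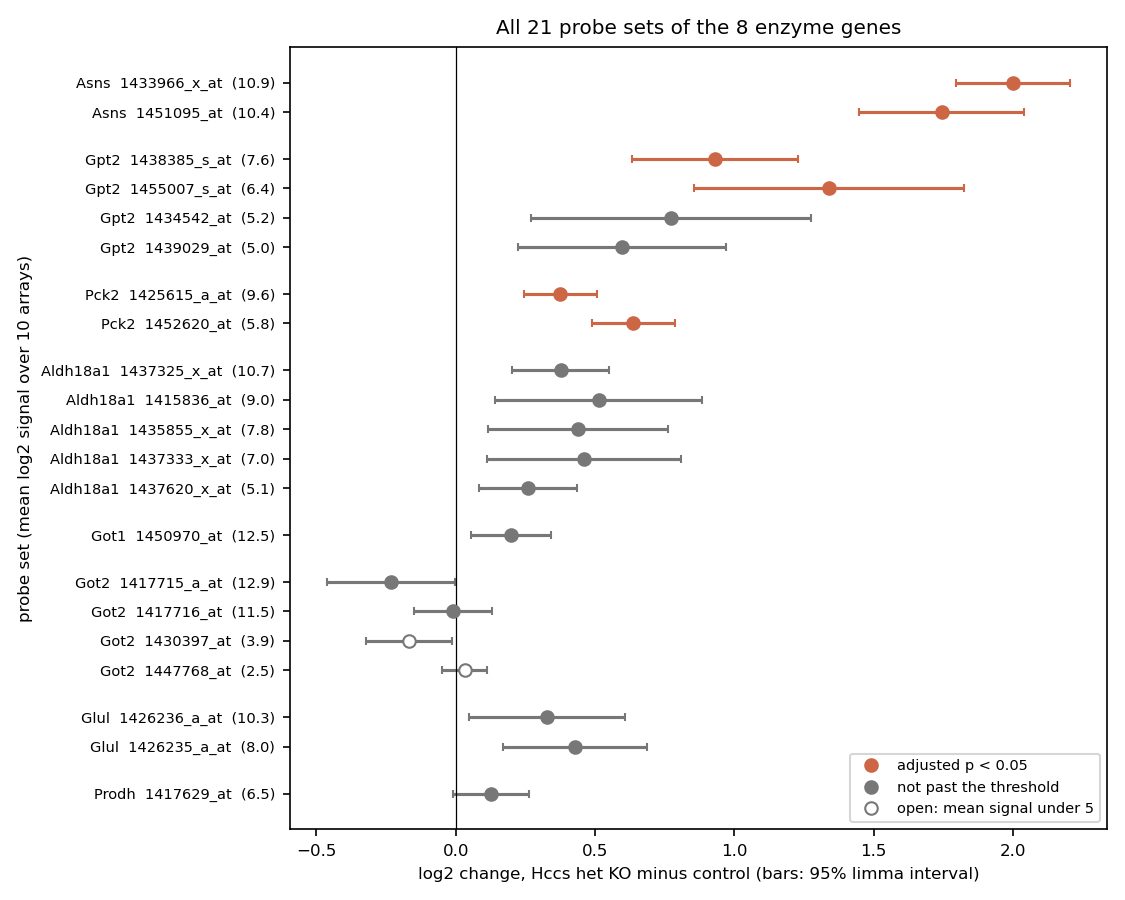
Log2 change between Hccs het KO and control (horizontal axis, with 95% intervals from limma) of all 21 probe sets of the 8 genes, ordered by gene and then by mean signal, which is printed beside each name. The 6 probe sets past an adjusted p of 0.05 (orange) belong to Asns, Gpt2 and Pck2; the probe sets of Got2 lie on both sides of 0.

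Over all 21 probe sets 18 had a positive log2 change. 6 rose and none fell past an adjusted p of 0.05 over the 45037 probe sets that are not array controls, where 0.822% of all probe sets rose and 0.318% fell. In 8 of the 21 every knockout array lay above every control array, against 3.79% of all probe sets. Probe sets of 1 gene read the same RNA and are not independent of each other.

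Got1 and Got2 are the cytosolic and mitochondrial aspartate aminotransferases. They interconvert aspartate and glutamate on both sides of the inner mitochondrial membrane and carry the malate-aspartate shuttle. The single probe set of Got1 (1450970_at) read 12.30, 12.40, 12.35, 12.42 and 12.50 in control arrays 1 to 5 and 12.76, 12.69, 12.46, 12.56 and 12.49 in knockout arrays 1 to 5. Knockout replicates 3 and 5 lay below the highest control array, control replicate 5, so the groups overlapped. Got1 had a log2 change of 0.20 (SE 0.065, 95% interval 0.054 to 0.34) with a limma adjusted p of 0.135. The brightest Got2 probe set (1417715_a_at) read 12.84, 12.79, 13.26, 12.92 and 13.02 in control arrays 1 to 5 and 13.01, 12.75, 12.58, 12.64 and 12.69 in knockout arrays 1 to 5. Knockout replicate 1 lay at the level of the higher controls, the other four below all controls. Its log2 change was -0.23 (SE 0.10, limma adjusted p = 0.238). The second Got2 probe set (1417716_at) had a log2 change of -0.011 (SE 0.062, 95% interval -0.15 to 0.13). The other two read 3.95 and 2.53 on average, near or below the array medians, and carry little weight.

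Glul, glutamine synthetase, adds ammonia to glutamate. Its brighter probe set (1426236_a_at) read 10.18, 9.997, 10.11, 10.19 and 10.42 in control arrays 1 to 5 and 10.12, 10.70, 10.65, 10.69 and 10.36 in knockout arrays 1 to 5. Knockout replicates 2, 3 and 4 lay above all controls, while replicates 1 and 5 lay among them. Its log2 change was 0.33 (SE 0.12, 95% interval 0.049 to 0.60, limma adjusted p = 0.181). In the dimmer probe set (1426235_a_at) knockout replicate 1 was not low, at 8.32, and the log2 change was 0.43 (SE 0.12, limma adjusted p = 0.105 over all probe sets). The 2 probe sets thus disagreed on replicate 1. Without knockout replicate 1 the brighter probe set had a log2 change of 0.42 and passed, with a limma adjusted p of 0.0437. In that fit 1042 genes passed in all, against 469 with all arrays.

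Prodh, proline dehydrogenase, takes the first step of proline breakdown in mitochondria and is also known as a gene induced by p53. Its single probe set (1417629_at) read 6.45, 6.38, 6.39, 6.45 and 6.45 in control arrays 1 to 5 and 6.62, 6.45, 6.36, 6.66 and 6.66 in knockout arrays 1 to 5. Replicates 1, 4 and 5 of the knockout lay above the controls and replicates 2 and 3 at or below their level. The log2 change was 0.13 (SE 0.062, 95% interval -0.012 to 0.26, limma adjusted p = 0.278).

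The 8 genes did not move by the same amount, and 4 pairs that share a substrate or compartment were compared within each array. The difference of the 2 log2 signals was taken in every array, and its shift between genotypes was set against that in every other assignment of the 10 arrays to groups of 5 (exact permutation test, two-sided). In all 4 pairs every knockout array lay above every control array. The exact permutation p was 0.00794 (n = 5 each), the smallest that 5 against 5 arrays allow, and also 0.00794 after adjustment over the 4 pairs. Asns, Gpt2 and Aldh18a1 already separated the groups on their own, so the separation of their pairs is not independent of those results. The pairs were also chosen with earlier results of these data known, so these p describe them and are not new tests. Got1 against Got2 shifted by 0.43, a 1.35-fold change of the ratio. With the control mean set to 0, the control arrays ran from -0.33 to 0.18 and the knockout arrays from 0.32 to 0.51. The cytosolic form was thus raised relative to the mitochondrial form although neither passed on its own. With the second Got2 probe set, a choice made after seeing the data, the shift was 0.21 and the exact permutation p unchanged at 0.00794.

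Asns against Glul, the 2 enzymes that form an amide, shifted by 1.67, a 3.19-fold change of the ratio. Knockout arrays ran from 1.19 in replicate 3 to 2.03 in replicate 1, the knockout with the lowest Glul in the brighter probe set used here. In the dimmer Glul probe set knockout replicate 1 was not low, at 8.32. Gpt2 against Got2, both mitochondrial aminotransferases that use glutamate, shifted by 1.16, and knockout arrays ran from 0.80 to 1.42 where the highest control lay at 0.49. The shift of Aldh18a1 against Prodh, the first steps of proline synthesis and of proline breakdown, was the smallest at 0.25. There the lowest knockout array (replicate 1, 0.129) and the highest control array (replicate 1, 0.126) nearly touched. A shift within an array shows unequal change of 2 transcripts and does not say which of them moved.

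**Figure D3:**
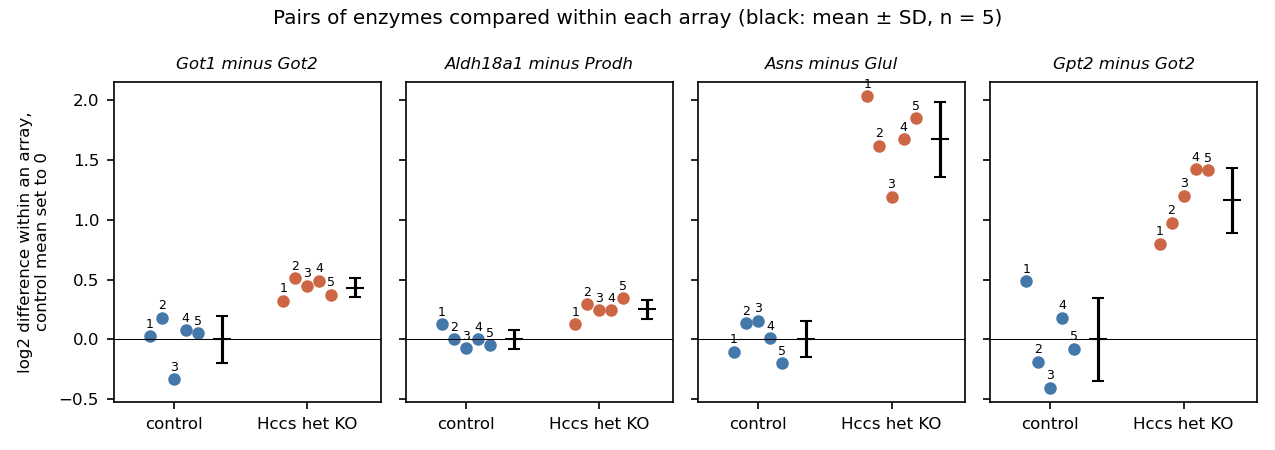
Difference between the log2 signals of 2 enzymes within each array (vertical axis, control mean set to 0) for 4 pairs, in 5 control (blue) and 5 Hccs het KO (orange) arrays; black marks are mean ± SD. All knockout arrays lie above all control arrays in each pair, by the widest margin for Asns against Glul and by the narrowest for Aldh18a1 against Prodh.

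The knockout pools differed among themselves in a way that several of these genes shared. Replicate 3 was the lowest of the 5 knockout arrays for 6 of the 8 genes (all but Gpt2 and Glul) and the highest for none. The controls had such an array too: control replicate 2 was the lowest for 5 of the 8 genes, tied with control replicate 4 for Pck2, and the highest for none. How often this holds over all genes was not counted. Knockout replicate 5 was the highest of the knockouts for 3, namely Gpt2, Aldh18a1 and Prodh. The brighter probe set of Hccs (1420890_at), the targeted gene, read 10.81, 10.73, 10.90, 10.57 and 10.39 in knockout arrays 1 to 5 and 11.11 to 11.31 in the controls. It was lower in every knockout than in every control (exact permutation p = 0.00794, n = 5 each). The dimmer Hccs probe set (1420889_at) read 9.03, 8.97, 8.84, 8.63 and 8.43 in knockout arrays 1 to 5 and 9.09 to 9.30 in the controls, again without overlap, but its log2 change of -0.40 did not pass over all probe sets (SE 0.11, limma adjusted p = 0.105). Replicate 5 had the lowest Hccs signal in both probe sets. The highest knockout was replicate 3 in the brighter one and replicate 1 in the dimmer one, so the probe sets did not give the knockout pools the same order.

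Other features of the arrays moved with the genotype or with single pools. The signal of 8 cardiomyocyte markers averaged 14.63 to 14.83 in the control arrays and 14.38 to 14.53 in the knockout arrays. All 8 had a negative change, with a median of -0.19, and 2 of the 8, Myh7 and Myl2, fell past the threshold. In whole-heart RNA, fewer cells of a type and less RNA per cell cannot be told apart. All 5 epicardial markers had a positive change and 1, Tcf21, rose (list means 10.07 to 10.46 in controls, 10.35 to 10.75 in knockouts). The 6 endothelial, 5 mesenchymal, 3 smooth muscle, 5 macrophage and 4 erythroid markers measured, and the 3 neural ones, had none past the threshold. The 4 erythroid markers all had a negative change, with a median of -0.20 (list means 12.50 to 13.41 in controls, 12.43 to 12.76 in knockouts). The control probe set for the 5′ end of 18S ribosomal RNA was lower in the knockouts (7.84 to 8.57) than in most controls (8.06 to 11.45). The groups overlapped more for the middle (7.23 to 8.95 against 7.70 to 9.73) and the 3′ end (8.01 to 8.93 against 7.57 to 11.07). The exact permutation p was 0.0238 for the 5′ end, 0.0794 for the middle and 0.222 for the 3′ end (n = 5 each). The part of these differences in the enzyme results was not tested.

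Hepatocyte markers were uneven between pools of 1 genotype. Liver also expresses most of these enzymes. The mean of 7 markers was 5.92, 4.25, 6.28, 5.14 and 6.39 in control arrays 1 to 5 and 4.61, 4.97, 4.05, 8.07 and 7.51 in knockout arrays 1 to 5. Afp, the fetal albumin, reached 14.52 and 14.26 in knockout replicates 4 and 5 but 8.78 in replicate 3. None of the 7 passed between genotypes, and 3 of them lay at or below the array medians on average. Without knockout replicates 4 and 5, a choice made after seeing the data, Asns kept a log2 change of 1.93 (limma adjusted p = 0.0015) and was the 1 gene of the 8 that passed. Gpt2, Pck2 and Aldh18a1 had changes of 0.81, 0.35 and 0.28 (limma adjusted p = 0.0811, 0.106 and 0.138) in these 3 against 5 arrays, where only 14 genes passed in all. Prodh dropped to 0.053. The knockout arrays left had hepatocyte means of 4.05 to 4.97, below those of control arrays 1, 3, 4 and 5, so leaving out arrays did not even out this signal. The 4 shifts between pairs kept their direction, from 0.22 for Aldh18a1 against Prodh to 1.61 for Asns against Glul, each with an exact adjusted permutation p of 0.0179, the smallest that 3 against 5 arrays allow. In knockout replicates 1 to 3, relative to the control mean, Asns read 3.93-, 4.41- and 3.18-fold, Gpt2 1.79-, 1.69- and 1.76-fold, Pck2 1.36-, 1.37- and 1.12-fold, and Aldh18a1 1.25-, 1.25- and 1.14-fold. The part of the hepatocyte signal in these values was not tested.

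The calls differed in how far they held. Asns passed under all 21 alternatives tried, with limma adjusted p from 5.1e-07 to 0.0151 and log2 changes from 1.87 to 2.10. Gpt2 passed under 18 of 21, including each of the 10 fits with 1 array left out. Pck2 passed under 16 of 21, and lost its call without control replicate 3, knockout replicate 2 or knockout replicate 4 (limma adjusted p = 0.0511, 0.0517 and 0.0538). In these fits the log2 change of Pck2 was 0.37, 0.35 and 0.36. In all, 111, 120 and 105 genes passed in them, against 469 with all arrays. Aldh18a1 passed under 7 of 21. With 1 array left out it passed only without knockout replicate 1 or 3, and its adjusted p rose to 0.0972 without knockout replicate 4. Got1, Got2 and Prodh passed under none, and no gene changed its direction.

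**Figure D4:**
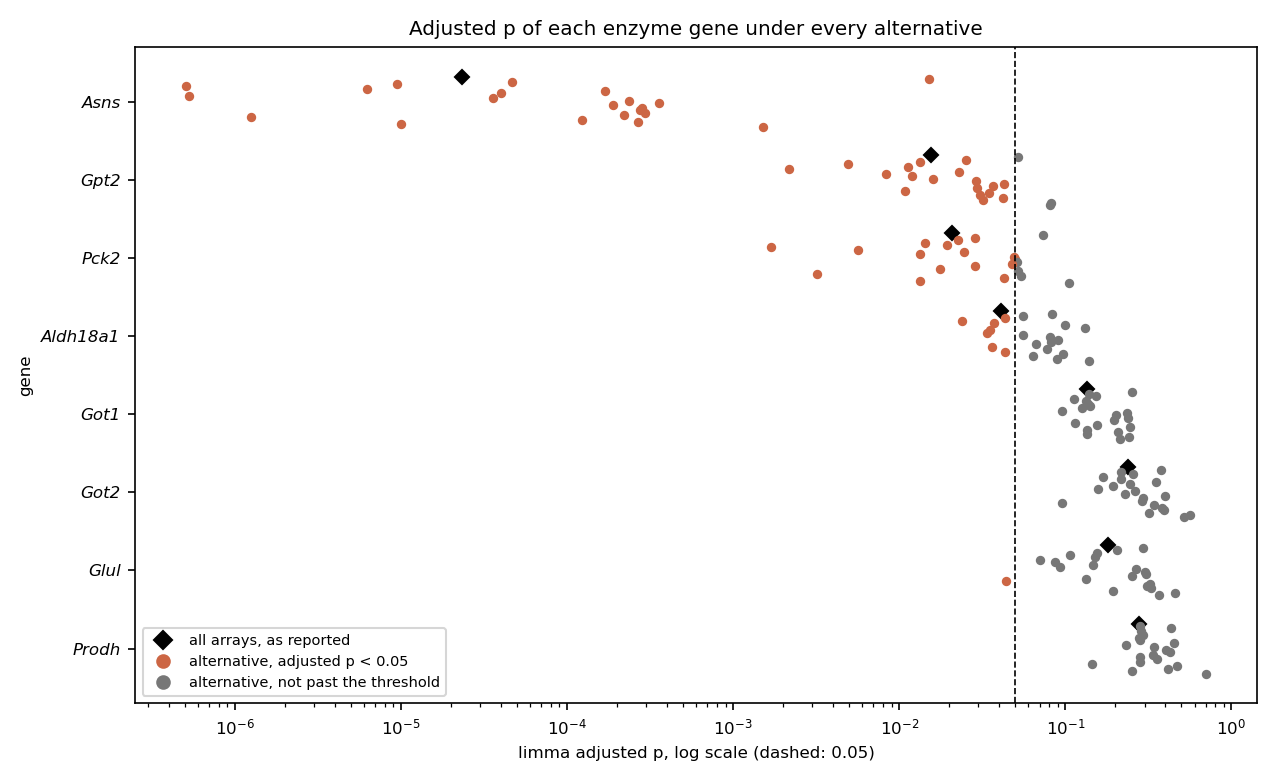
Adjusted p from limma (horizontal axis, log scale, dashed line at 0.05) of the 8 genes with all arrays (black diamonds) and under each alternative setting or set of arrays (circles, orange under 0.05). Asns stays to the left of the line in all of them, while the circles of Gpt2, Pck2 and Aldh18a1 fall on both sides. For Glul 1 circle lies to the left.

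Around these 8 genes, 46 other measured enzymes that handle glutamine, glutamate, asparagine, aspartate, alanine, branched-chain amino acids, proline, ornithine, pyruvate and GABA were read from the same fit. Of these, 2 rose, none fell and 44 did not pass, against 2.58% of all genes that passed in either direction. Their median log2 change was 0.052, and 32 of 46 were positive. 19 of the 46 had a mean signal under 5. Under quantile normalization 3 of the 46 passed, 2 higher and 1 lower. Bcat1, the cytosolic branched-chain aminotransferase, which also makes glutamate, rose. It read 6.0, 5.93, 6.36, 6.05 and 5.71 in control arrays 1 to 5 and 7.04, 6.85, 7.01, 6.83 and 7.01 in knockout arrays 1 to 5. The log2 change was 0.94 (SE 0.11, limma adjusted p = 0.00849), close to that of Gpt2.

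Odc1, ornithine decarboxylase, which leads from ornithine to polyamines, rose as well, from 12.92 ± 0.11 to 13.61 ± 0.29 (mean ± SD, n = 5 each; log2 change 0.69, SE 0.13, limma adjusted p = 0.0291). Its probe sets disagreed, with log2 changes of 0.13 and 0.057 in the dimmer ones, so that this rise rests on 1 of 3 probe sets, an _x_at one. With 1 array left out, Bcat1 passed in all 10 fits, while Odc1 passed in 2 of 10, those without control replicate 5 or knockout replicate 1 (limma adjusted p up to 0.071 in the others). The brightest enzymes that did not pass were the malate dehydrogenases Mdh2 (log2 change 0.10, SE 0.045) and Mdh1 (-0.034, SE 0.032), which work with Got2 and Got1 in the malate-aspartate shuttle, and Oat, ornithine aminotransferase (0.055, SE 0.060). The 95% intervals of the Mdh2, Mdh1 and Oat changes were 0.0026 to 0.20, -0.11 to 0.038 and -0.079 to 0.19. Other bright probe sets of the malate dehydrogenases disagreed in sign, with log2 changes of -0.11 for Mdh2 (1416478_a_at) and of 0.30 and -0.18 for Mdh1 (1436834_x_at and 1448172_at). None of these 3 passed over all probe sets (limma adjusted p = 0.213, 0.114 and 0.171). The cytosolic isozymes of Gpt2 and Pck2 were dim, and are named after their values were seen. Gpt, the cytosolic alanine aminotransferase, averaged 4.45 in controls and 4.11 in knockouts, and Pck1, the cytosolic carboxykinase, 3.45 and 3.58.

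**Figure D5:**
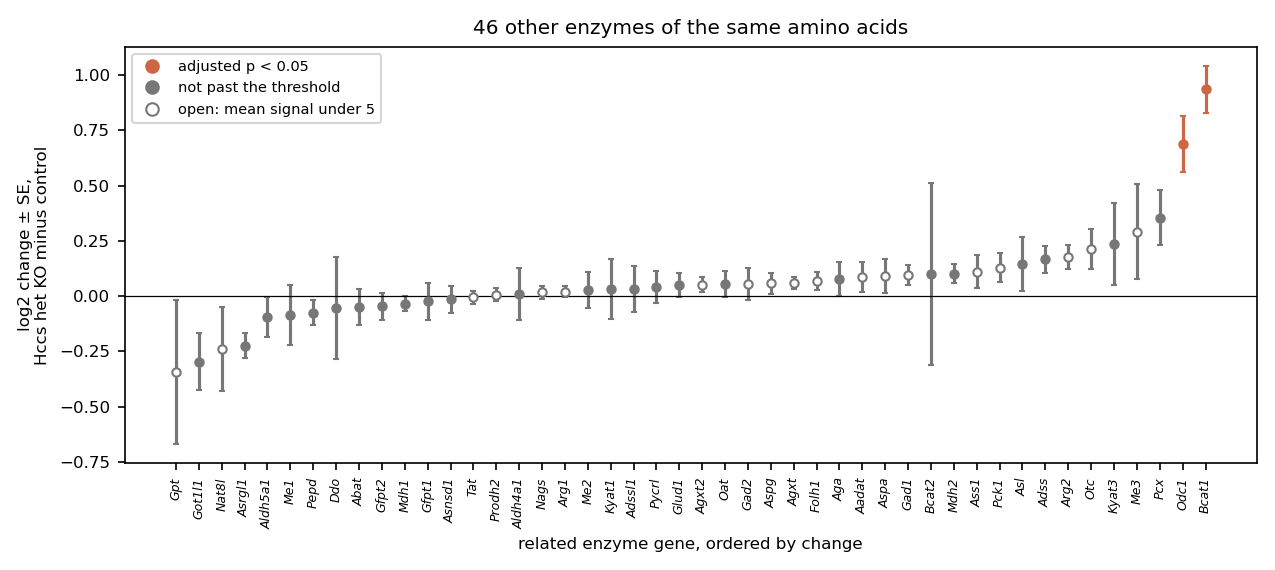
Log2 change ± SE between Hccs het KO and control (vertical axis) of the 46 related enzymes, ordered by change; open circles mark genes with a mean signal under 5. Bcat1 and Odc1 (orange) passed an adjusted p of 0.05, and most of the others lie within 0.25 of 0.

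For each gene that rose, the genes whose 10 values lay nearest were sought among 9089 other genes with a mean level above the median. Values were centred on each gene's control mean, and likeness was the mean absolute difference over the 10 arrays, given here as a description. The nearest to Asns were Mthfd2, a mitochondrial folate enzyme (0.29), Trib3, a pseudokinase (0.41), and the transcription factor Atf5 (0.49). To Gpt2 they were Phgdh, which opens serine synthesis (0.15), Emb (0.16) and B3galnt2 (0.18). To Pck2 they were Nars, the synthetase that charges tRNA with asparagine (0.044), Ttc19 (0.068) and Mapk9 (0.069). To Aldh18a1 they were Mme (0.071), Mtrf1l (0.076) and Slc16a12 (0.078), and of these only Mtrf1l passed (limma adjusted p = 0.0392). For Aldh18a1 these 3 distances differed little from one another.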

How the data were processed

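RNA of 10 pools of hearts was hybridised to Affymetrix arrays. The deposited table holds log2 signals, 1 per probe set and array, made by the authors with RMA and Partek, per the submitters' processing notes, which give no versions. RMA brings arrays to a common distribution, so a change of total RNA cannot be seen, and it can compress low signals. Values ran from 0.602 to 16.6. Precision is limited by the 5 arrays per group. Groups came from the sample labels.

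Not used for genes were 64 array controls, 9160 probe sets without a symbol and 932 with several. The brightest probe set stood for a gene. Changes are knockout minus control from limma 3.58.1 in R 4.3.3 (genotype only, default eBayes). Folds are powers of 2 of these changes. Single values were compared by exact permutation. Plots used matplotlib 3.10.9 in Python 3.11.15. In 1 simulation with independent genes, limma found 68% of the genes shifted by 0.5 log2 units and 90% of those shifted by 1, with 17 false calls of 175 over 18193 genes.

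Named were the 8 genes, Hccs, the related enzymes with the smallest p that passed, the 3 brightest that did not, and the 3 nearest genes. Members, lists and rules were chosen with earlier results of these data known. Nothing in the labels ties the pools to litters or hybridisation batches. Alternatives were median centring, quantile normalization, a replicate block, level filters at the lower quartile and the median, the most variable or the averaged probe set, array weights, eBayes with trend and robust, a threshold of 0.01 and arrays left out.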

Additional observations from a re-analysis of the deposited data

Results flagged for a closer look

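In 2 of the 56 groups of 5 arrays looked at, 1 array lay far from the others by Dixon's criterion, where chance gives about 1 in 20. Pck2 (1425615_a_at) read 9.61 in knockout replicate 3, while the other knockout arrays lay between 9.84 and 9.90. Without that array the log2 change of Pck2 was 0.43 (limma adjusted p = 0.0032). The dim Got2 probe set 1430397_at read 3.88 in control replicate 3, while the other controls lay between 4.04 and 4.10, all near the array medians.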

How the results depend on the processing

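Of 167 changes of single genes under alternatives, 144 kept their direction and side of the threshold, 22 lost a call, 1 gained one and none reversed. The 4 pair shifts and Hccs kept both throughout, with shifts of 0.35 to 0.48 for Got1 against Got2 and -0.60 to -0.48 for Hccs when 1 array was left out. Same-numbered arrays of the 2 genotypes did not deviate together (correlations of -0.066 to 0.11). With the replicate number as a block, 36 genes passed in place of 469, and among them 1 of the 8 genes (Asns, limma adjusted p = 0.0151), 1 of the 46 related enzymes and 1 of the 21 probe sets. At a threshold of 0.01 the counts were 14, 1 and 1. With both arrays numbered 3 left out they were 30, 2 and 1, and without knockout arrays 4 and 5 they were 14, 1 and 0, with 2 probe sets. The filter at the median gave 759 genes and 1 related enzyme, array weights 945 genes, and averaging the probe sets of each gene 1 related enzyme. With 1 array left out, 105 to 1042 genes, 2 to 5 of the 8 genes, 1 to 3 related enzymes and 3 to 7 probe sets passed. Quantile normalization gave 416 genes, 230 higher and 186 lower, in place of 297 and 172, and median centring gave 274 and 108. Prodh fell below the filter at the median. The causes were not tested. Signals near the array medians limit what the dim probe sets of Gpt2 and Got2 can show.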
